A study of Mus musculus and synthetic construct with 21 samples.

Results

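The elements described here are 1080 designed reporter elements, called arrays, that were built on 1 locus of mouse chromosome 13 and carry repeated transcription factor motifs. They were taken by the locus written in each element's name, which 1081 of the 3243 elements of pool 7 hold. The remaining element of the 1081 names the locus with no array, and every array was set against it. A name gives 2 motifs, a digit of 2, 4 or 6 that is read here as the number of motif copies, and an arrangement code from 1 to 3. The names hold 15 motifs in all 120 pairs, of which 15 repeat a single motif and 105 mix a pair of different motifs. Each pair has 9 arrays, at 3 copy numbers and 3 arrangement codes, and each motif is in 135 arrays. What the arrangement codes stand for, and whether an array replaces the locus's own site, are not spelled out in the names.

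The study asked how the affinity of PPARγ motifs, chromatin and co-regulatory motifs bear on PPARγ binding and enhancer activity. Elements were transfected into 3T3-L1 cells, a mouse pre-adipocyte line that turns into adipocytes when it is induced. Per the labels, confluent cells received dexamethasone (1 µM), IBMX (0.5 mM) and insulin (1.7 µM) in medium with 10% serum for 48 h and then serum medium alone, and RNA was taken 16 h after transfection. Arrays and locus elements were measured together in the same cells, with 1 RNA library and 1 plasmid library, and how the transfection was timed against the induction is not given in the labels.

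In a massively parallel reporter assay, an element sits beside a reporter gene tagged with short barcodes, and a barcode's abundance in RNA is set against its abundance among the plasmids. Fat cell formation depends on PPARγ, a nuclear receptor that binds with its partner RXR to DR1 motifs, direct repeats of a hexamer with a single spacer base. AP-1 is a family of dimers of JUN, FOS and related bZIP proteins that binds a short palindrome in many enhancers and responds to growth and stress signals. BACH1 is a bZIP repressor that recognises an extended AP-1 site together with small MAF proteins. The motif names say which factor a motif was taken from, not which factor bound it in these cells.

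The sequences in the names of the 3 loci of pool 7 are shown because arrays were measured against the element of their locus. The full sequences of these elements were not used here. The 16 bases come from the element names, 5′ to 3′, and capitals mark the 13 bases aligned to the DR1 consensus, AGGTCA repeated after 1 spacer base of any kind.
chromosome 13 locus: tgaAGGTCAGAGTTTA
chromosome 15 locus: agtAGGACAGGGGTTA
chromosome 9 locus: agtGGGGCAGAGGGCA
The chromosome 13 sequence lies at chr13:46069371-46069386 on the plus strand of mm9. Counted from base 1 of the capitals, with the consensus base first, it differs from the consensus by 2 substitutions, G10T and C12T, both in the second hexamer. The chromosome 15 sequence (chr15:67824069-67824084, minus strand) differs by 3, namely T4A, A8G and C12T. The chromosome 9 sequence (chr9:66727486-66727501, plus strand) also differs by 3, namely A1G, T4G and T11G. Genes around these positions were not analysed here. The motif sequences inside the arrays were not used here, so arrays are identified by their names.

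The RNA library of pool 7 held 9806531 counts and the plasmid library 10179019. A chromosome 13 array had a median of 2208 RNA counts, 3855.5 plasmid counts and 122 linked barcodes. Of the 1080 arrays, 1079 had the 50 plasmid counts required, and the exception, myc with myc at 4 copies and arrangement 3, had 0 RNA and 0 plasmid counts over 21 barcodes. Activity is RNA counts over plasmid counts on a log2 scale, after division by the library totals and with 1 count added to each. The 95% counting interval of an array's activity was 0.15 log2 units wide at the median and 0.38 at the 95th percentile of the 1060 arrays with any RNA counts. These intervals cover counting error only. Neither library was replicated, so no test of a difference was possible, and every ± below is the SD over arrays, which share both libraries and are not replicates.

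The chromosome 13 locus without an array had 21377 RNA and 43479 plasmid counts over 1152 barcodes, an activity of -0.97 (95% Clopper-Pearson interval -0.99 to -0.95). All values of arrays below are log2 differences, the activity of the array minus that of this element. Over the 1079 arrays the difference averaged 0.10 ± 1.57, with a median of 0.24. The spread was thus far wider than the counting interval of a typical array, and it reached in both directions. The 5th percentile was -2.23 and the 95th percentile 2.12, a dynamic range of 4.35 log2 units or 20.5-fold.

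Of the 1079 arrays, 271 were at least 2-fold above the locus element (25.1%), beside 39.3% of the 3216 arrays of all 3 loci, each set against its own locus element. At least 2-fold below it lay 162 arrays (15%), beside 16.8% over the 3 loci. The counting interval lay wholly past the 2-fold line for 242 of the higher and 150 of the lower arrays. Of the 271 higher arrays, 238 held a ppar motif or at least 1 of the 4 AP-1-type motifs bach1, jun, fos and fra1, which 585 arrays hold.

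Arrays with more copies were higher. The median difference was -0.10 at 2 copies, 0.38 at 4 copies and 0.77 at 6 copies. At least 2-fold above the locus element were 14 of 360 arrays at 2 copies (3.89%), 96 of 359 at 4 copies (26.7%) and 161 of 360 at 6 copies (44.7%). The arrays at least 2-fold below it numbered 71 at 2 copies (19.7%), 52 at 4 copies (14.5%) and 39 at 6 copies (10.8%). Over all arrays, more copies thus came with a larger share of high arrays and a smaller share of low ones. This did not hold for every motif. Of the 45 arrays with myb at each copy number, 11, 22 and 18 were at least 2-fold below at 2, 4 and 6 copies, and 0, 6 and 5 above. Matched arrays with myb were higher at 6 than at 2 copies in 19 of 45 cases. With motifs and arrangement held the same, arrays of 6 copies were higher than arrays of 2 copies in 272 of 360 cases, with a median difference of 1.01. By at least 2-fold, 182 of the 360 were higher (50.6%, against 55.1% over the 3 loci) and 36 were lower (10.0%, against 13.6%).

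The 15 motifs were ranked by the mean over all arrays that hold them. The order was ppar, bach1, jun, fos, fra1, lxr, e4bp4, atf3, vbp, foxo4, ap2, foxd1, cebp, myc and myb. Motif ppar, the DR1 motif of PPARγ, averaged 0.99 ± 0.96, with 72 of its 135 arrays at least 2-fold above the locus element (53.3%) and 2 below (1.48%). Over all 1079 arrays, 25.1% were above and 15% below. Motif bach1 averaged 0.89 ± 1.26, with 64 above and 9 below. Next came jun with 0.72 ± 1.39 (62 above, 13 below), fos with 0.57 ± 1.18 and fra1 with 0.55 ± 1.51 (48 above and 10 below for each). With arrays of 0 RNA counts set at 3 counts fra1 averaged 0.58 and stood before fos. Neighbours in this order differed by far less than the SD over their arrays, and the order describes these libraries only.

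The ppar motif alone gave 1.52, 0.75 and 0.17 at 2 copies, in the order of arrangement codes 1, 2 and 3. At 4 copies the values were 2.46, 1.56 and 1.86. At 6 copies they were 2.04, 1.47 and 2.39. All 9 arrays were above the locus element, and those of 4 copies and of 6 copies overlapped almost wholly. The highest of them, 4 copies in arrangement 1, had 10774 RNA and 3989 plasmid counts, and the lowest, 2 copies in arrangement 3, had 2000 RNA and 3616 plasmid counts. The array of 6 copies in arrangement 3 had 37694 RNA and 14584 plasmid counts, the most of both among the chromosome 13 arrays.

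Over all 45 ppar arrays at each copy number, single and mixed, the mean was 0.44 ± 0.66 at 2 copies, 1.19 ± 1.20 at 4 copies and 1.33 ± 0.69 at 6 copies. It was the highest of the 15 motifs at 2 copies and at 4 copies and the fifth highest at 6 copies. With motifs and arrangement the same, arrays with ppar were higher at 4 than at 2 copies in 38 of 45 cases (mean difference 0.75 ± 1.31). Between 6 and 4 copies the count was 24 of 45 and the mean difference 0.14 ± 1.11. The gain in arrays with ppar thus lay mainly between 2 and 4 copies. Over all arrays the counts were 245 of 359 (mean difference 0.57 ± 1.86) and then 230 of 359 (0.40 ± 1.70). A smaller second step was not particular to ppar. The mean differences were 0.86 and then 0.18 for lxr, and 0.53 and then 0.04 for foxo4. For jun they were 0.98 and then 1.03, and for cebp 0.08 and then 0.43.

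The 4 AP-1-type motifs had another profile. They stood near the locus element at 2 copies and well above it at 6 copies. For bach1, the mean over 45 arrays was -0.21 ± 0.91 at 2 copies, 0.96 ± 1.01 at 4 copies and 1.92 ± 0.79 at 6 copies. For jun it was -0.27 ± 0.89 at 2 copies, 0.71 ± 1.17 at 4 copies and 1.74 ± 1.30 at 6 copies. Both were higher at 6 copies than at 2 in nearly all matched cases, 45 of 45 for bach1 and 44 of 45 for jun. Over all arrays it was 272 of 360. For fra1, a Fos family member, the mean was -0.36 ± 1.36 at 2 copies, 0.50 ± 1.52 at 4 copies and 1.52 ± 0.98 at 6 copies. For fos it was -0.09 ± 0.68 at 2 copies, 0.41 ± 1.13 at 4 copies and 1.38 ± 1.16 at 6 copies.

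Arrays of a single AP-1-type motif showed the same steps, here in the order of arrangement codes 1, 2 and 3. The bach1 motif alone gave -0.06, 0.67 and 0.74 at 2 copies, 2.16, 1.75 and 1.45 at 4 copies, and 2.55, 2.73 and 2.24 at 6 copies. The jun motif alone gave 0.60, 0.12 and -0.18 at 2 copies, 1.83, 1.24 and 1.44 at 4 copies, and 2.76, 3.04 and 2.79 at 6 copies. In both motifs the 3 copy numbers did not overlap, each with 3 arrays that are not replicates. The fos motif alone gave -0.62, -0.23 and -0.04 at 2 copies, 0.66, 1.35 and 0.68 at 4 copies, and 2.83, 2.26 and 3.23 at 6 copies, again without overlap. The fra1 motif alone gave -0.98, 0.11 and -0.16 at 2 copies, -0.33, 2.34 and 1.83 at 4 copies, and 2.61, 1.91 and 2.28 at 6 copies. Here arrangement 1 at 4 copies lay among the arrays of 2 copies, while arrangement 2 at 4 copies lay within the range of 6 copies and arrangement 3 just under it. In counts, the highest fos array, 6 copies in arrangement 3, had 19817 RNA and 4295 plasmid counts, and the lowest, 2 copies in arrangement 1, had 1418 RNA and 4421 plasmid counts. The plasmid counts of these fos arrays were thus alike and the RNA counts were not.

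The pairs made within bach1, jun, fos and fra1, 10 with the single motifs included, gave 30 arrays at each copy number. Their mean was -0.15 ± 0.82 at 2 copies, 1.34 ± 0.81 at 4 copies and 2.72 ± 0.37 at 6 copies. At least 2-fold above the locus element were 1 of 30 arrays at 2 copies, 21 of 30 at 4 copies and 30 of 30 at 6 copies, against 3.89%, 26.7% and 44.7% of all arrays at those copy numbers. At 6 copies the 30 arrays lay between 1.73 and 3.23. The 12 arrays of ppar with an AP-1-type motif lay closer together at 6 copies, between 1.48 and 2.35 (SD 0.31). Within bach1, jun, fos and fra1, every one of the 30 matched cases was higher at 6 copies than at 2, by 2.87 ± 0.94.

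ATF3 is a stress-induced bZIP factor that can pair with JUN and binds related sites, and its motif had other values. It was kept apart from the 4 AP-1-type motifs with these values known. Its mean over all arrays was 0.02 ± 1.40. At least 2-fold above the locus element were 28 arrays (20.7%) and below it 23 (17.0%), beside 25.1% and 15% of all arrays. The atf3 motif alone gave -1.86, -1.57 and -0.02 at 2 copies, 1.67, -0.30 and 0.58 at 4 copies, and -0.32, 0.81 and -0.24 at 6 copies. Its highest array, 4 copies in arrangement 1, had 5913 RNA and 3773 plasmid counts, and its lowest, 2 copies in arrangement 1, had 751 RNA and 5541 plasmid counts. Paired with jun, atf3 averaged 1.16 ± 0.82 over 9 arrays, 7 of them at least 2-fold above the locus element. With atf3 counted among the AP-1 motifs, the 45 arrays of 6 copies made within the group averaged 2.22 ± 0.87. Of these, 42 were at least 2-fold above the locus element (93.3%, against 44.7% of all arrays at 6 copies).

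LXR is an oxysterol receptor that also pairs with RXR, and its motif stood next after ppar and the AP-1-type motifs. Its mean over 135 arrays was 0.42 ± 1.15. At least 2-fold above the locus element were 41 arrays (30.4%) and below it 10 (7.41%), beside 25.1% and 15% of all arrays. The lxr motif alone gave 0.43, 0.15 and -0.68 at 2 copies, 0.65, 0.96 and 1.24 at 4 copies, and 1.74, 0.43 and -0.08 at 6 copies. The 6-copy arrays spanned more than the whole range of the 4-copy arrays. The highest, 6 copies in arrangement 1, had 9934 RNA and 6046 plasmid counts, and the lowest, 2 copies in arrangement 3, had 1580 RNA and 5166 plasmid counts.

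C/EBP proteins work beside PPARγ in fat cell formation, and E4BP4 (NFIL3) and VBP, a chicken PAR bZIP factor, bind related sites. None of the 3 motifs reached the level of ppar. Their means were 0.14 ± 1.15 for e4bp4, -0.03 ± 1.25 for vbp and -0.29 ± 1.08 for cebp. At least 2-fold above the locus element were 27 e4bp4 arrays, 27 vbp arrays and 9 cebp arrays (20.0%, 20.0% and 6.67%). At least 2-fold below were 14, 23 and 25 (10.4%, 17.0% and 18.5%). Over all arrays, 25.1% were above and 15% below, so the e4bp4 and vbp shares lay near those of all arrays. Of the 54 arrays made within these 3 motifs, 2 were at least 2-fold above the locus element and 7 below. The lowest array of cebp alone, 4 copies in arrangement 1, stood at -2.35 with 294 RNA and 3052 plasmid counts, and the highest, 2 copies in arrangement 2, at 0.61 with 2877 RNA and 3827 plasmid counts. For e4bp4 alone the lowest was -0.60 (2 copies, arrangement 1) and the highest 0.90 (6 copies, arrangement 2). For vbp alone the lowest was -0.60 (6 copies, arrangement 1) and the highest 1.29 (4 copies, arrangement 1).

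The forkhead motifs foxo4 and foxd1 lay below the locus element on average. FOXO4 is a forkhead factor held in check by insulin signalling, and FOXD1 is a developmental forkhead factor. The means were -0.20 ± 1.13 for foxo4 and -0.26 ± 1.47 for foxd1, although at 6 copies foxo4 averaged 0.00 and foxd1 -0.05. Of the 27 arrays made of forkhead motifs only, 0 were at least 2-fold above the locus element and 7 below, with a mean of -0.75 ± 0.96. Over all arrays, 25.1% were above and 15% below. The foxo4 motif alone ranged between -2.21 (2 copies, arrangement 1) and 0.15 (4 copies, arrangement 2). The foxd1 motif alone ranged between -2.47 (4 copies, arrangement 3) and 0.72 (4 copies, arrangement 2), so its extremes were arrays of the same copy number.

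AP-2 factors act mainly in epidermal and neural crest development. The ap2 motif averaged -0.26 ± 1.32 with a median of 0.06. Alone it gave 0.90, 0.53 and -0.27 at 2 copies, 0.74, 0.72 and -1.52 at 4 copies, and 0.19, -1.29 and -2.87 at 6 copies. Within each arrangement code the array of 6 copies was thus lower than that of 2 copies. The highest had 4834 RNA and 5272 plasmid counts and the lowest 82 RNA and 1233 plasmid counts.

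MYC is a growth-promoting factor that binds E-boxes, and MYB is best known in blood cell progenitors. Their motifs held the lowest ranks by mean, -0.60 ± 2.40 for myc and -1.17 ± 2.29 for myb, and -0.47 and -1.05 with arrays of 0 RNA counts set at 3 counts. The median over myc arrays was 0.14, the ninth highest of the 15 motifs, while the median over myb arrays, -0.56, was the lowest. The myc mean thus lay well under its median, with 11 of its arrays at 0 RNA counts. At 2, 4 and 6 copies the myc medians were -0.74, 0.12 and 0.67. The myc motif alone at 6 copies gave 1.24, 1.14 and 1.23, and its lowest array, 2 copies in arrangement 2, had 0 RNA and 120 plasmid counts. The myb motif alone was highest at 4 copies in arrangement 3, with 643 RNA and 400 plasmid counts (1.71), while arrangements 1 and 2 at 4 copies had 0 RNA counts beside 347 and 310 plasmid counts.

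All 19 arrays with 0 RNA counts held myc or myb, 11 with myc and 10 with myb, 2 of them with both. Of all 1079 arrays, 134 hold myc and 135 hold myb. They had 69 to 645 plasmid counts. Taking 3 counts as the limit that 0 allows in 1 library, they were at least 11.3-fold to at least 106-fold lower than the locus element, a range set by their plasmid counts. All 19 also had few plasmid counts per linked barcode, between 1.28 and 5.80, against a median of 32.3 over the arrays with RNA counts. Of the 72 arrays under 10 plasmid counts per barcode, 62 held myc, myb or ap2. By motif, 34 held myb, 29 myc, 11 ap2, 10 ppar and 9 cebp, where an array of different motifs counts for each. Those with ppar included ppar with cebp at 6 copies in arrangement 1 (1.11 per barcode). They also included ppar with vbp at 6 copies in arrangement 2 (3.93 per barcode). Whether plasmid counts per barcode have a part in the low activity was not tested. With the 1007 arrays at 10 or more plasmid counts per barcode, 264 were at least 2-fold above the locus element and 119 below, and the means of myc and myb were 0.20 ± 1.10 and -0.45 ± 1.39.

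The very low arrays came together by motif, copy number and arrangement. Of the 15 arrays with myc at 2 copies in arrangement 2, 7 had 0 RNA counts, and the medians were 3 RNA counts, 258 plasmid counts and 3.14 plasmid counts per barcode. Their median difference was -5.27, or -4.31 with the arrays of 0 RNA counts set at 3 counts. With myb the lowest sets were 4 copies in arrangement 2 (median -3.33, 10.0 plasmid counts per barcode), 6 copies in arrangement 3 (-2.29, 8.0 per barcode) and 4 copies in arrangement 1 (-1.34, 6.94 per barcode). By comparison, sets of 15 arrays defined by any other motif had medians between -0.67 and 1.98 and between 14.7 and 40.8 plasmid counts per barcode. The low sets were only partly the same in the other loci. With myc at 2 copies in arrangement 2, the median was 1.98 in the chromosome 15 locus and -0.58 in the chromosome 9 locus. With myb at 4 copies in arrangement 2, it was -1.36 in the chromosome 15 locus and 0.59 in the chromosome 9 locus. In the chromosome 15 locus that myb set was thus low too, with 7 arrays at 0 RNA counts and a median of 1.67 plasmid counts per barcode.

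Among the 120 pairs, 67 had a mean above 0, 20 had a mean of 1 or more and 12 of -1 or less. The 10 highest were bach1 with fra1 (1.65 ± 1.27), bach1 alone (1.58 ± 0.95), ppar alone (1.58 ± 0.74), bach1 with jun (1.55 ± 1.92), jun alone (1.52 ± 1.19), ppar with bach1 (1.51 ± 0.62), ppar with jun (1.5 ± 0.85), fos with bach1 (1.37 ± 1.43), ppar with fos (1.23 ± 0.82) and ppar with lxr (1.20 ± 0.59). Each mean is over 9 arrays. In 9 of the 10, both motifs were ppar or AP-1-type, and the exception pairs ppar with lxr. The means in this list, which differ by less than 0.5, cannot be ranked because neither library was replicated. Their SDs of 0.6 to 1.9 over arrays include the differences between copy numbers.

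The high pairs differed in their spread over arrays. For ppar with bach1 the 9 arrays gave 1.18, 0.57 and 0.64 at 2 copies, 2.02, 2.09 and 1.37 at 4 copies, and 1.48, 2.03 and 2.21 at 6 copies. Every array was above the locus element, and 10 of the 120 pairs had this property. For bach1 with jun, the 9 arrays gave -0.25, 0.23 and -2.15 at 2 copies, 3.60, 1.60 and 1.85 at 4 copies, and 2.95, 2.96 and 3.18 at 6 copies. The pair held the highest mean of all pairs at 6 copies, 3.03, although 1 of its arrays at 2 copies was more than 4-fold below the locus element. For bach1 with fra1, the 9 arrays gave -0.46, -0.08 and 1.51 at 2 copies, 1.43, 1.44 and 2.12 at 4 copies, and 2.99, 3.07 and 2.83 at 6 copies. At 6 copies, 9 of the 10 highest pairs were made within bach1, jun, fos and fra1, and the other was bach1 with myc (2.33). The ppar motif alone, with a mean of 1.97 at 6 copies, was the 14th highest there.

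The 10 lowest pairs all held myc or myb, 8 of them myb. Of the 120 pairs, each motif is in its own single-motif pair and 14 mixed pairs. They were myb alone (-2.81), myc with myb (-2.48), ap2 with myb (-2.44), atf3 with myb (-2.27), foxd1 with myb (-1.97), cebp with myc (-1.68), cebp with myb (-1.34), e4bp4 with myc (-1.34), vbp with myb (-1.29) and fra1 with myb (-1.20). With arrays of 0 RNA counts set at 3 counts, the first 5 of these became -2.28, -2.13, -2.26, -2.09 and -1.61. The pairs myb alone, ap2 with myb and myc with myb had medians of 2.87, 3.40 and 8.15 plasmid counts per barcode, so most of their arrays fall among those with few plasmid counts per barcode. Pairs of myb with ppar and with lxr were not in this list. They averaged 0.79 and 0.28.

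The highest single array was bach1 with jun at 4 copies in arrangement 1, with 19998 RNA and 3343 plasmid counts, a difference of 3.60 (95% interval 3.55 to 3.66) or 12.2-fold. The next 9 lay between 2.98 and 3.23, all at 6 copies. They were fos alone in arrangement 3 (3.23), bach1 with jun in arrangement 3 (3.18), bach1 with myc in arrangement 2 (3.08), fos with bach1 in arrangement 3 (3.07), bach1 with fra1 in arrangement 2 (3.07), jun alone in arrangement 2 (3.04), fos with jun in arrangement 3 (3.00), bach1 with fra1 in arrangement 1 (2.99) and fos with jun in arrangement 1 (2.98). All 10 held an AP-1-type motif and none held ppar, beside 486 and 135 of all 1079 arrays that hold them. The highest array was also the highest in the chromosome 15 locus, at 7.60, and it stood at 2.53 in the chromosome 9 locus.

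With 1 count added to each library, the 10 lowest arrays were arrays with 0 RNA counts, whose values and place among the other arrays depend on that added count. They were foxd1 with myb at 4 copies in arrangement 2 and at 6 copies in arrangement 3, myc with myb at 6 copies in arrangement 2, fra1 with myb at 4 copies in arrangement 2, ap2 with myc at 2 copies in arrangement 3, myb alone at 4 copies in arrangements 1 and 2, fra1 with myc and foxd1 with myc at 2 copies in arrangement 2, and vbp with myc at 2 copies in arrangement 3. Their plasmid counts of 223 to 645 put them at least 36.5-fold to at least 106-fold lower than the locus element. The lowest array with more than 3 RNA counts was atf3 with myb at 4 copies in arrangement 2, with 6 RNA and 1435 plasmid counts (-6.66, interval -8.33 to -5.75). It lay below most of these 10 arrays when they are set at 3 RNA counts. The same array stood at 0.73 in the chromosome 9 locus. Of the 10 lowest arrays with more than 3 RNA counts, the one with neither myc nor myb was foxo4 with foxd1 at 6 copies in arrangement 2, with 115 RNA and 3046 plasmid counts (-3.69) and 32.4 plasmid counts per barcode.

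Mixed arrays were set against the arrays of each of their motifs alone, at the same copy number and arrangement. This was possible for 931 mixed arrays. The mixed array minus the mean of its single-motif arrays averaged -0.03 ± 1.27, with a median of 0.05. At least 2-fold above that mean were 137 arrays (14.7%, against 24.7% over the 3 loci) and at least 2-fold below it 148 (15.9%, against 18.4%). Mixed arrays thus lay on both sides of the mean of their single-motif arrays in like numbers. Between the lower and the higher of their single-motif arrays lay 464, below the lower 254 and above the higher 213. Those above the higher by at least 2-fold were 30 (3.22%, against 7.55% over the 3 loci).

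Over all mixed arrays of 6 copies with both single-motif arrays measured, 56 of 315 were above the higher of the 2 single-motif arrays (17.8%), 193 between them and 66 below both. Of the 12 arrays of ppar with bach1, jun, fos or fra1 at 6 copies, 0 were above the higher of the 2 single-motif arrays, 5 were between them and 7 below both. At 4 copies 3 of the 12 such arrays were above the higher, 6 between and 3 below both, and at 2 copies 0, 9 and 3. Over all mixed arrays, 54 of 301 at 4 copies were above the higher (17.9%) and 86 below both. At 2 copies 103 of 315 were above the higher (32.7%) and 102 below both. The 12 arrays of ppar with an AP-1-type motif averaged 1.89 ± 0.31 at 6 copies, against 1.97 ± 0.47 for ppar alone (3 arrays). At 4 copies the 12 mixed arrays averaged 1.80 ± 0.53 and at 2 copies 0.35 ± 0.82. At 6 copies the mean of these 12 mixed arrays and that of ppar alone thus differed by less than the SD over arrays. The AP-1-type motifs alone had higher means at 6 copies, between 2.27 for fra1 and 2.86 for jun. At 6 copies these 12 mixed arrays had a median of -0.81 relative to the higher of their single-motif arrays and -0.35 relative to the mean of both. For ppar with motifs other than AP-1-type, the mean was 0.44 ± 0.59 at 2 copies, 0.87 ± 1.32 at 4 copies and 1.04 ± 0.64 at 6 copies.

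Of the mixtures within bach1, jun, fos and fra1, 8 of 18 at 6 copies were above both single-motif arrays, 9 between and 1 below both. At 2 copies 6 of 18 were above both and 8 below both, and at 4 copies 5 were above both and 6 below both. Over all mixed arrays the shares above both were 32.7% at 2 copies, 17.9% at 4 copies and 17.8% at 6 copies. AP-1-type motifs mixed with the other motifs, ppar not counted, lay between their single-motif arrays in 106 of 120 cases at 6 copies, above both in 3 and below both in 11. Their median was -0.08 at 2 copies, 0.42 at 4 copies and 1.37 at 6 copies. Arrays with neither ppar nor an AP-1-type motif had medians of -0.40 at 2 copies, -0.08 at 4 copies and -0.06 at 6 copies. This last class therefore stayed near or under the locus element at every copy number.

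By pair, the 78 mixed pairs without myc or myb had mean differences from their single-motif arrays between -0.56 and 0.51, the highest being lxr with e4bp4 (0.51 ± 0.69). Pairs with myb went further, with 1.41 ± 1.82 for lxr with myb, 1.40 ± 1.37 for ppar with myb, 1.20 ± 1.37 for foxo4 with myb and 1.04 ± 1.95 for e4bp4 with myb. These differences rest in part on the myb-only arrays, 3 of which had 0 RNA counts, and their medians were 1.07, 1.11, 0.99 and 0.74. Relative to the higher of their single-motif arrays, the same pairs averaged -0.49, -0.87, -0.54 and -0.80. Some other pairs with myb lay below the mean of their single-motif arrays. Among them were myc with myb (-1.03 ± 3.90), ap2 with myb (-0.87 ± 1.92) and atf3 with myb (-0.79 ± 1.81). The lowest pairs were cebp with myc (-1.34 ± 1.79) and e4bp4 with myc (-1.26 ± 1.86), for which 8 of 9 matched cases were measured. Of the single mixed arrays, those furthest above the higher of their single-motif arrays were myc with myb at 2 copies in arrangement 2 (3.18 higher), atf3 with foxo4 at 2 copies in arrangement 1 (2.57 higher) and ppar with foxd1 at 2 copies in arrangement 3 (2.13 higher), with 33.3, 43.2 and 32.9 plasmid counts per barcode. The single-motif arrays of the first stood at -5.89 (0 RNA counts) and -2.59 and those of the second at -1.86 and -2.21. The array of ppar with foxd1 stood at 2.30, beside 0.17 for ppar alone and 0.12 for foxd1 alone. It had 7988 RNA and 3288 plasmid counts. These 3 arrays were named after their values were seen.

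Arrangement codes had little common effect. With motifs and copies the same, code 1 minus code 2 averaged 0.17 ± 1.59, code 1 minus code 3 averaged 0.07 ± 1.55 and code 2 minus code 3 averaged -0.09 ± 1.88. Code 1 was the higher in 185 of 360 comparisons with code 2 and in 177 of 359 with code 3. Yet the same pair at the same copy number differed between codes by a median range of 1.30 at 2 copies, 1.25 at 4 copies and 1.06 at 6 copies, many times the counting interval. As a description across pairs, which share both libraries, Pearson's r between codes 1 and 2, 1 and 3, and 2 and 3 was 0.24, -0.01 and 0.16 at 2 copies. At 4 copies it was 0.54, 0.20 and 0.17, and at 6 copies 0.63, 0.68 and 0.67. Spearman's rho, in the same order of codes, was 0.24, -0.02 and 0.09 at 2 copies and 0.51, 0.33 and 0.40 at 4 copies. At 6 copies it was 0.70, 0.75 and 0.71. By either measure, all 3 values were thus above 0.6 only at 6 copies.

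In an additive description of the 1079 activities, the motif pair took 33.6% of the variance, copy number 6.47% and arrangement 0.19%, and 59.7% was left over. Within a copy number, a sum of 1 term for each of the 2 motifs took 22.4% at 2 copies, 39.1% at 4 copies and 61.6% at 6 copies. The same sum took 48.6% at 6 copies in the chromosome 15 locus and 52.6% in the chromosome 9 locus. In the chromosome 13 locus the motif terms thus took more than was left over only at 6 copies.

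The other 2 loci show where the chromosome 13 background stood apart. Its locus element was the most active of the 3, at -0.97, beside -2.59 (-2.68 to -2.50) for chromosome 15 and -1.28 (-1.30 to -1.26) for chromosome 9. The chromosome 15 element had 7444 plasmid counts over 2121 barcodes, or 3.51 per barcode. The elements of chromosomes 13 and 9 had 37.7 and 38.1 per barcode. The median activity of the arrays themselves was -0.73 in the chromosome 13 locus, -1.31 in the chromosome 15 locus and -0.59 in the chromosome 9 locus. The chromosome 13 locus had the smallest share of arrays at least 2-fold above the locus element, 25.1%, beside 54.3% in the chromosome 15 locus and 38.7% in the chromosome 9 locus. The shares at least 2-fold below were 15%, 25.2% and 10.3%, in the same order of loci. These shares moved with the depth per barcode. Among arrays with at least 10 plasmid counts per barcode, 1007 in the chromosome 13 locus, 269 in the chromosome 15 locus and 959 in the chromosome 9 locus, the shares above were 26.2%, 77.3% and 39.9% and the shares below 11.8%, 2.60% and 6.88%. The chromosome 13 locus then had the largest share of low arrays. Each share rests on 1 locus element, and the differences between loci could not be tested with 1 library. The minimum of 10 was set for arrays only, and the chromosome 15 element itself lay under it. All chromosome 15 differences therefore rest on an element with few plasmid counts per barcode.

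The dynamic range from the 5th to the 95th percentile was 4.35 log2 units in the chromosome 13 locus, 10.2 in the chromosome 15 locus and 4.71 in the chromosome 9 locus. Depth moved with this. The chromosome 15 arrays had a median of 981.5 plasmid counts and 4.68 per barcode, and 117 of its 1058 arrays had 0 RNA counts. The median was 32.2 plasmid counts per barcode in the chromosome 13 locus and 28.6 in the chromosome 9 locus, with 19 and 21 arrays at 0 RNA counts. The part of depth in the wider range of chromosome 15 was not tested.

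For the same array, the chromosome 13 difference minus the chromosome 9 difference averaged -0.43 ± 1.75 over 1078 arrays, with a median of -0.46. Against chromosome 15 it averaged -0.36 ± 2.97 over 1057 arrays, with a median of -1.06. As a description across arrays of the same libraries, Spearman's rho between chromosome 13 and chromosome 9 was 0.20 at 2 copies, 0.50 at 4 copies and 0.71 at 6 copies. Against chromosome 15 it was 0.11 at 2 copies, 0.34 at 4 copies and 0.63 at 6 copies. Arrays of 2 copies thus kept little of their order between loci and arrays of 6 copies kept more of it.

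The leading motifs were shared. The means in the chromosome 13, 15 and 9 loci were 0.99, 1.83 and 1.54 for ppar, 0.89, 1.88 and 1.24 for bach1, and 0.72, 1.23 and 1.31 for jun. These means share the plasmid and RNA libraries but not the locus element. The lowest motif was myb in each locus, with -1.17, -1.15 and -0.73. Of the 10 highest pairs, 9 were among the 10 highest of the chromosome 9 locus and 3 among the 10 highest of the chromosome 15 locus.

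Arrays of 6 copies made within bach1, jun, fos and fra1 averaged 2.72 ± 0.37 in the chromosome 13 locus, 3.75 ± 1.51 in the chromosome 15 locus and 3.34 ± 0.56 in the chromosome 9 locus. The step from 4 to 6 copies in arrays with ppar was 0.14 ± 1.11 in the chromosome 13 locus, 1.95 ± 2.78 in the chromosome 15 locus and 0.18 ± 0.78 in the chromosome 9 locus. The small step was therefore also seen in the chromosome 9 locus, and the larger value in the chromosome 15 locus had an SD above its mean.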

How the data were processed

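The deposited table of pool 7 holds raw read counts per element, which the authors summed over all barcodes of the element, per the series' design text and the file headers. A further column gives the number of barcodes linked to each element. It equals the number of lines in the deposited barcode map for 3243 of 3243 elements. The submitters' processing notes list Bowtie2 2.1.0 and the build mm9.

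Activity was log2((RNA + 1)/(plasmid + 1)) scaled to the library totals, for arrays with at least 50 plasmid counts. An array was called higher or lower at 2-fold or more from its locus element. The share of all arrays of the 3 loci past that line is given as background. Intervals are exact binomial (Clopper-Pearson, 95%) and cover counting error only, because barcode reads carry no count of molecules. With 1 RNA and 1 plasmid library there was no replicate and no test. Shares of variance are drops in explained sums of squares of an additive fit. The calculations used Python 3.11.15, numpy 2.4.6, pandas 2.3.3 and scipy 1.17.1, and were checked on simulated counts with known changes.

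All 15 motifs, the 10 highest and 10 lowest pairs and arrays, and the highest and lowest array of each single motif were named by rule. The arrays and motif groups were chosen with earlier results of these data known. Alternatives were other pseudocounts, plasmid and barcode minimums, folds, percentiles, medians, subsets of arrays and the ends of the locus element's interval. Arrays with 0 RNA counts set at 3, and a minimum of 10 plasmid counts per barcode, were chosen after seeing the data.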

Additional observations from a re-analysis of the deposited data

How the results depend on the processing

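Of the alternative values that answer a comparison, 98 stayed within counting error, within 1 percentage point of variance or within 1.5 times the main count, and 54 did not. The means of ppar, bach1 and myb and the difference between 6 and 2 copies kept their sign under every alternative tried, while the 3 differences between arrangement codes and that between mixed and single-motif arrays, all near 0, did not. All 13 ways of averaging the motifs put myb last, 12 kept ppar, bach1, jun, fos and fra1 as the first 5, and 11 kept ppar first. The mean over all arrays was 0.10. It became 0.24 with at least 500 plasmid counts, 0.24 as a median, 0.15 with a pseudocount of 5, 0.13 with 0 RNA counts set at 3, and 0.30 with at least 10 plasmid counts per barcode. The dynamic range of 4.35 became 3.91 with at least 500 plasmid counts, 3.72 with at least 10 per barcode, 3.15 between the 10th and 90th percentiles, and 11.9 between the lowest and highest array, a value set by the added count because the lowest array had 0 RNA counts. A 3-fold line gave 131 arrays above and 90 below the locus element. The difference between 6 and 2 copies was 0.90 with at least 500 plasmid counts and 1.01 as a median. Arrangement code 1 minus code 2 became 0.018 with at least 500 plasmid counts, -0.023 with at least 10 per barcode, 0.051 as a median, 0.098 with a pseudocount of 5 and 0.13 with 0 RNA counts set at 3. Code 1 minus code 3 became -0.0081, -0.014, -0.014, 0.032 and 0.047 under the same settings in that order. Code 2 minus code 3 became -0.0080 with at least 500 plasmid counts and 0.015 with at least 10 per barcode. The mixed arrays minus the mean of their single-motif arrays had a median of 0.052. With at least 500 plasmid counts, bach1 averaged 0.92 and myb -0.76. With at least 10 per barcode, ppar averaged 1.06, bach1 0.94 and myb -0.45. As medians, ppar was at 1.04 and myb at -0.56. The myb mean was -1.25 with a pseudocount of 0.5, -0.95 with a pseudocount of 5 and -1.05 with 0 RNA counts set at 3. At 6 copies alone the means were 1.33 for ppar, 1.92 for bach1 and -1.63 for myb, and over single-motif arrays they were 1.58, 1.58 and -2.81. The share of variance taken by the motif pair was 35.1% with at least 500 plasmid counts, 35.6% with at least 10 per barcode, 35.4% with a pseudocount of 5 and 34.8% with 0 RNA counts set at 3. The share taken by copies was 8.11%, 11.7% and 7.93% under the first 3 of these settings. The same array in the chromosome 13 locus minus the chromosome 15 locus was -0.76 with at least 500 plasmid counts, -0.26 and -0.64 with pseudocounts of 0.5 and 5, -0.51 with 0 RNA counts set at 3, and -1.06 as a median. Why these values moved was not tested. No paired analysis was possible because the pool had 1 RNA and 1 plasmid library. Differences between arrays that are larger than their counting intervals may still be within the variation between cultures, which was not measured, and values of arrays under 10 plasmid counts per barcode rest on thin plasmid data.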
